A study of Homo sapiens with 12 samples.

Results

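The interaction of HORMAD1 and CT83 was measured in 12 of the 12 libraries of the study, taken as a 2 by 2 design from the sample titles. HMLE is a human mammary epithelial cell line immortalised with telomerase and SV40 antigens, and all 4 lines compared were derived from it and selected with puromycin. The control line carried a control transgene, the CT83 line overexpressed CT83, the HORMAD1 line overexpressed HORMAD1 and the double line overexpressed both, with 3 libraries of polyA RNA per line. The interaction is the log2 level in the double line minus those in the CT83 line and the HORMAD1 line plus that in the control line, so that 0 means that the 2 single effects added on the log2 scale. The labels name 1 line per construct, so the effect of a transgene and a difference that arose between lines cannot be told apart. They do not say whether the libraries of a line came from separate cultures, so the p-values measure only the spread between these libraries.

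HORMAD1 is a HORMA-domain protein of the meiotic chromosome axis that is silent in most adult somatic tissues and is re-expressed in some cancers, in which it has been studied for its influence on homologous recombination. CT83, also called KK-LC-1, is an X-linked cancer/testis gene whose protein is a target of T cells and whose molecular role is little known. Both genes are recurrently active in basal-like breast cancer, and HMLE cells have basal features. The design of the series asks whether the 2 genes cooperate, and the interaction is the quantity in which cooperation or antagonism would appear.

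The libraries held 9898845 to 14159740 counts. HORMAD1 was at 0 counts in the control and CT83 lines, at 203, 332 and 335 CPM (counts per gene scaled to library size) in the HORMAD1 line and at 283, 312 and 346 CPM in the double line. CT83 was at 0 in the control and HORMAD1 lines, at 400.2, 446 and 724 CPM with CT83 alone and at only 86.7, 101 and 118 CPM in the double line. The 2 transgenes have no interaction value, and the CT83 level was not matched between the 2 lines that carry it, so every value below compares the double line with a CT83 line of higher CT83 level. The mammary epithelial markers KRT5, KRT14, KRT8, KRT18, EPCAM, CDH1 and TP63 were present in every library, from 131 CPM for TP63 upward. Summed over the marker list, 9 endothelial genes reached at most 1.75 CPM, 7 adipocyte genes at most 1.55 CPM and 10 leukocyte genes at most 9.03 CPM, mostly CD14 and CD68, with PTPRC at 0 in 11 of 12 libraries.

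No gene had an interaction that passed the threshold. Of 15616 genes tested with edgeR's quasi-likelihood test, 0 had a Benjamini-Hochberg adjusted p under 0.05, and the smallest adjusted p was 0.841. At an unadjusted p under 0.05 there were 703 genes, which is 4.5% of those tested, with 278 (1.78%) above 0 and 425 (2.72%) below 0. Scaling by library size alone gave 208 above and 525 below, and upper-quartile scaling 325 above and 385 below. Without the 3 libraries described near the end the balance turned, with 550 above and 486 below. DESeq2 called 3 genes, HHIP, SRGN and ENSG00000288528, and limma-voom called 0. All 703 genes had the same sign when the contrast was taken on the CPM scale in place of the log2 scale. No gene is therefore said below to have changed through the interaction of the 2 transgenes in the full data, and the values that follow describe what was measured.

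**Figure D1:**
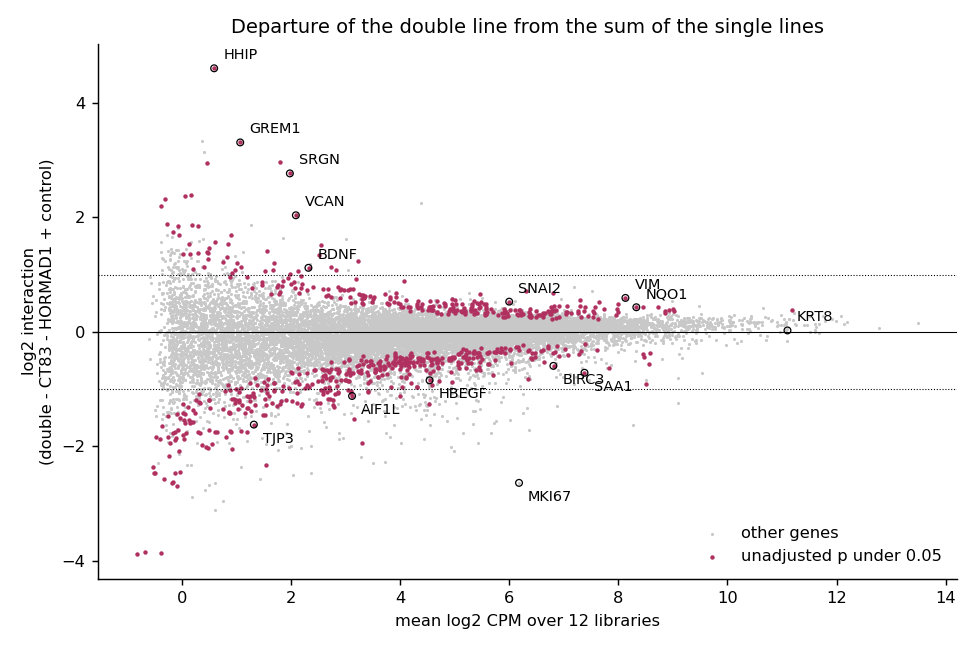
Log2 interaction of each gene (vertical axis) against its mean log2 CPM over the 12 libraries (horizontal axis), with genes at an unadjusted p under 0.05 in red, 15 of the named genes ringed and dotted lines at 1 and -1. The scatter narrowed as the level increased, HHIP lay highest among the ringed genes, followed by GREM1, and MKI67 lay far below 0 without reaching a p of 0.05.

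The libraries limited the interaction to a narrow range for most genes. The 95% interval lay within 1 log2 unit of 0, that is within 2-fold, for 10965 genes (70.2%). This share was 10.5% for genes with a mean log2 CPM under 2, 70.5% from 2 to 4, 90.8% from 4 to 6 and 96% over 6. The median standard error of the interaction was 0.538 in the lowest of these bands and 0.136 in the highest, and the median interaction of all genes was -0.01. Keratins of both layers are given as examples. KRT8, a luminal keratin, had an interaction of 0.02 (95% interval -0.31 to 0.36), and KRT18, its partner and a gene whose locus overlaps it in the annotation, had 0.03 (-0.27 to 0.33). KRT5, a basal keratin, had 0.28 (-0.00 to 0.56), and TP63, the transcription factor of basal cells, had 0.00 (-0.25 to 0.26). A departure of 2-fold lay outside the intervals of these 4 genes. It lay inside that of KRT14, the other main basal keratin, at 0.54 (-0.19 to 1.27).

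Mesenchymal and matrix genes had values above 0. Of 27 genes of the list of mesenchymal genes and transcription factors of the epithelial-mesenchymal transition, 24 were tested, 19 lay above 0 and 5 below, and the median interaction was 0.42 against -0.01 for all genes. Of the 24 tested, 3 had an unadjusted p under 0.05, all above 0, and none was called. Over all genes tested, 48.5% lay above 0 and 51.5% below. At an unadjusted p under 0.05 were 1.78% above and 2.72% below, and these shares stand beside the counts of every list here. Measured as log2 deviation from the 12-library mean, the median list level was 0.11, 0.09 and 0.15 in the control line and -0.15, 0.15 and 0.28 in the double line. It was -0.19, -0.34 and 0.20 in the CT83 line, and 0.24, -0.42 and -0.23 in the HORMAD1 line. CT83 replicate 3 and HORMAD1 replicate 1 were above all 3 controls, and double replicate 1 was below them.

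VIM, which encodes the intermediate filament vimentin, was at 286, 289 and 313 CPM in the control libraries. The CT83 line had 234, 216 and 341 CPM, the HORMAD1 line 245, 229 and 240.1 CPM and the double line 275, 363 and 322 CPM. The HORMAD1 libraries were all below the control and double libraries, whereas CT83 replicate 3 was above all 3 controls. The mean of the double line was 319.9 CPM, where the sum of the single log2 effects gives 212 CPM, and the interaction was 0.59 (SE 0.21). VIM overlaps the antisense gene VIM-AS1, and reads of the 2 cannot be told apart without strand.

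SNAI2, a repressor of epithelial genes, was at 66.4, 58.5 and 74.4 CPM in the control line and 56.5, 45.3 and 68.6 CPM in the CT83 line. It was at 57.1, 57.4 and 64.2 CPM with HORMAD1 alone and 69.6, 72.6 and 77.7 CPM in the double line, with an interaction of 0.53 (SE 0.18). All 3 double libraries exceeded all 6 single-line libraries. The interaction of VIM stayed between 0.46 and 0.86 and that of SNAI2 between 0.38 and 0.74 over 23 alternative settings. FBN1, which encodes the microfibril protein fibrillin-1, was the third member at an unadjusted p under 0.05. Its levels were 2.96, 2.27 and 7.84 CPM in the control line, 1.71, 1.38 and 2.58 CPM in the CT83 line, 3.10, 0.482 and 1.05 CPM with HORMAD1 alone and 4.35, 3.51 and 8.96 CPM in the double line. The interaction was 2.97 (SE 0.93).

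The other members were spread widely. ZEB1 and ZEB2, zinc-finger repressors of CDH1, had interactions of 1.15 and 1.57. The collagen genes COL1A1 and COL3A1 had 2.25 and 3.34, and the value of COL3A1 carried a standard error of 1.61 because 1 HORMAD1 library had 0 counts and control replicate 3 stood at 6.57 CPM against 0.91 and 0.87 CPM in the other controls. SNAI1 had -0.75, the matrix gene TNC -0.30 and FN1, which encodes fibronectin, -0.02. The list median was between 0.33 and 0.56 when any 1 library was left out and 0.68 without the 3 libraries of the steepest rise on transcript length.

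Fibroblast markers were read beside these genes. Of 12 markers 7 were tested, 6 lay above 0 and FBLN1 below, and the median interaction of the 7 was 0.53. It was 0.88 without CT83 replicate 3 and 0.99 without the 3 libraries of the steepest rise on transcript length. THY1, COL1A1 and COL3A1 stand in both lists. The summed level of the list was 135 to 159 CPM in the control line, 125 to 131 CPM in the CT83 line, 102 to 147 CPM with HORMAD1 alone and 109 to 166 CPM in the double line, so the lines overlapped. FBLN1 was the largest part of this sum in every library. It was at 57.9 to 87.4 CPM in the control line, 75.8 to 86.9 CPM with CT83 alone, 65.2 to 92.1 CPM with HORMAD1 alone and 62.6 to 69.2 CPM in the double line. Among the defining markers DPT was at 0 in every library, PDGFRA had 4 counts in all, and DCN and LUM reached at most 1.41 and 1.31 CPM, in double replicate 3. COL1A2 was at 18.9 CPM in control replicate 3 and under 0.5 CPM in the other 11 libraries. The part of a few fibroblast-like cells in the mesenchymal values was not tested, and in bulk RNA more cells of a type and more RNA per cell cannot be told apart.

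Several genes of secreted and signalling proteins that were chosen after their values were seen had the same form. GREM1, which encodes the bone morphogenetic protein antagonist gremlin 1, was at 2.12, 1.05 and 3.71 CPM in the control line and 2.66, 2.63 and 5.74 CPM in the double line. It was at 0.343, 0.864 and 1.24 CPM with CT83 alone and 1.48, 0.964 and 0.614 CPM in the HORMAD1 line. The double libraries were above all 6 single-line libraries, and the interaction was 3.31 (SE 0.75). VCAN, a matrix proteoglycan, had 5.61, 4.28 and 6.32 CPM in the control line and 3.37, 5.17 and 8.15 CPM in the double line. In the single lines it had 1.20, 1.99 and 3.83 CPM with CT83 and 4.45, 1.93 and 2.90 CPM with HORMAD1, for an interaction of 2.04 (SE 0.58). VCAN overlaps VCAN-AS1 in the annotation.

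HHIP and SRGN, called by DESeq2 and not by the main edgeR test, differed from this form in that every double library exceeded the other 9. HHIP, a hedgehog-binding antagonist, was at 2.22, 3.07 and 5.54 CPM in the double line and at 0.0964 to 2.05 CPM in the other 9 libraries. Its interaction was 4.61 (SE 0.96) with edgeR and 4.59 with DESeq2 (adjusted p = 0.031), and it rests on HORMAD1 libraries of 0.202, 0.0964 and 0.351 CPM. SRGN, the proteoglycan serglycin, was at 5.86, 6.14 and 11.6 CPM in the double line and at 0.861 to 4.78 CPM elsewhere. Its interaction was 2.77 (SE 0.62), and DESeq2 gave an adjusted p of 0.031. RGS4, a regulator of G-protein signalling, had 1.97, 0.612 and 2.02 CPM in the control line and 1.51, 1.84 and 2.72 CPM in the double line against 0.27 to 0.868 CPM in the single lines, an interaction of 2.96 (SE 0.74).

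**Figure D2:**
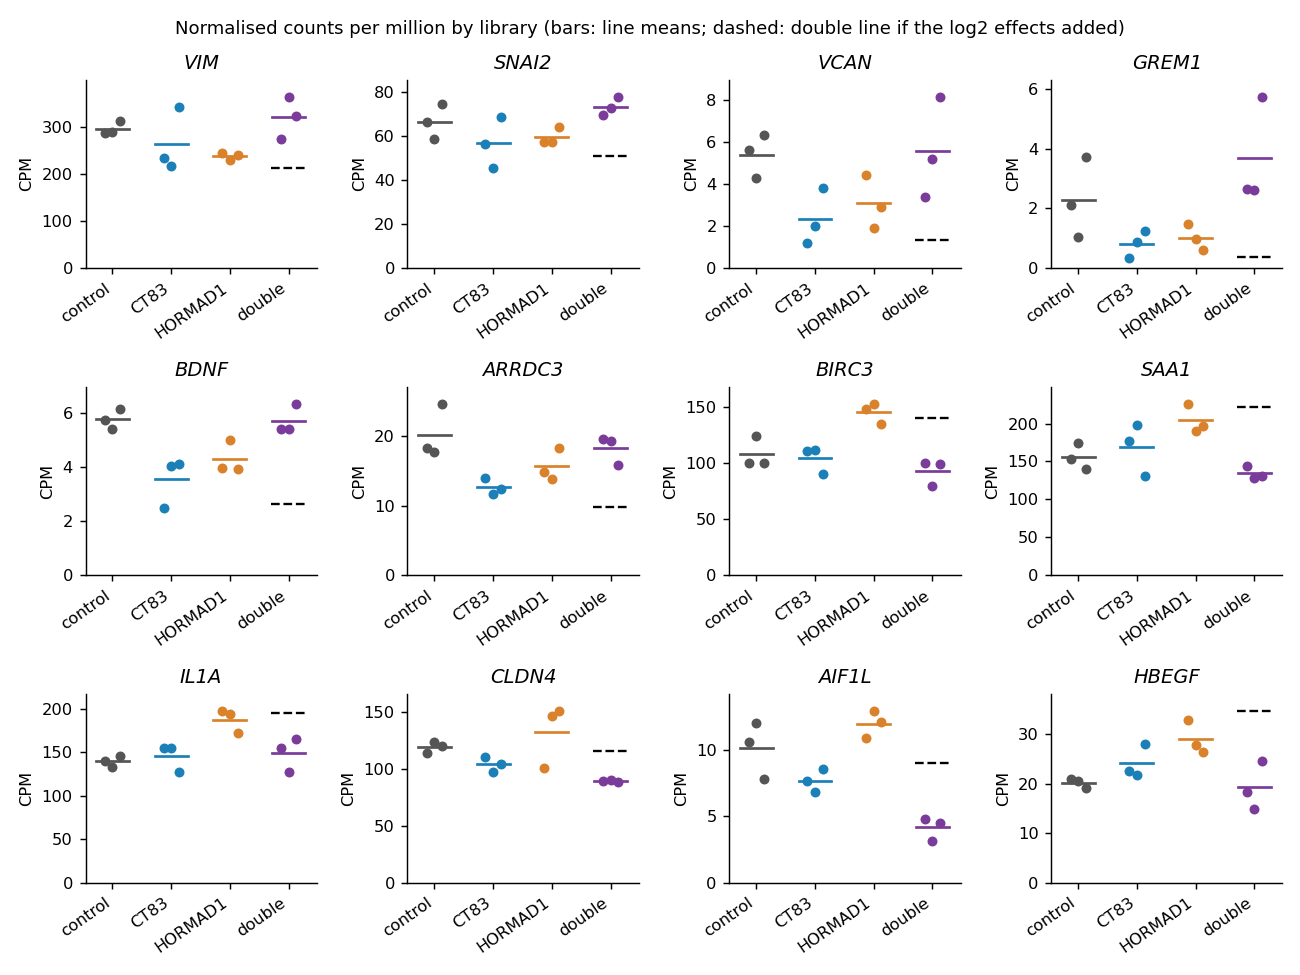
Normalised CPM of 12 genes in each library (points, replicates 1 to 3 from left to right) by line, with the line mean as a bar and, as a dashed bar, the level that the double line would have if the single log2 effects added. The double line lay above the dashed level for VIM, SNAI2, VCAN, GREM1, BDNF and ARRDC3 and below it for BIRC3, SAA1, IL1A, CLDN4, AIF1L and HBEGF.

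Among protein-coding genes with a mean log2 CPM of at least 2, the 8 with the smallest p above 0 were ARRDC3, WDR77, BDNF, TRIM13, TMEM156, LRRC39, RDH16 and PAPPA. ARRDC3, an arrestin-domain adaptor, was at 18.3, 17.7 and 24.6 CPM in the control line, 14, 11.7 and 12.4 CPM in the CT83 line, 14.9, 13.9 and 18.3 CPM with HORMAD1 alone and 19.6, 19.3 and 15.9 CPM in the double line. Its interaction was 0.89 (SE 0.22). BDNF, a neurotrophin, had 5.76, 5.42 and 6.15 CPM in the control line, 2.49, 4.06 and 4.11 CPM in the CT83 line, 3.98, 5.01 and 3.95 CPM with HORMAD1 alone and 5.41, 5.44 and 6.34 CPM in the double line. Every control and double library of BDNF exceeded every single-line library. Its interaction was 1.12 (SE 0.30) and ranged from 0.91 to 1.23 over the alternatives.

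WDR77, a partner of the arginine methyltransferase PRMT5, was at 137, 138 and 145 CPM in the double line and between 98.2 and 126 CPM in the other 9 libraries. Its interaction was 0.45 (SE 0.12). WDR77 overlaps ATP5PB, a subunit of ATP synthase, which had an interaction of 0.39 (SE 0.16). PAPPA, a metalloproteinase that cleaves insulin-like growth factor binding proteins, was at 5.9, 8.33 and 11.6 CPM in the double line. Elsewhere it was between 2.02 and 5.9 CPM, with control replicate 2 level with double replicate 1. The interaction of PAPPA was 1.34 (SE 0.39). TRIM13, a ubiquitin ligase, had 0.67 (SE 0.18), and RDH16, a retinol dehydrogenase, had 0.97 (SE 0.28).

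Genes of NF-kB signalling and inflammation had values mainly below 0. Of 18 subunit and feedback genes of NF-kB, all tested, 13 lay below 0 and 5 above, with a median of -0.13. An unadjusted p under 0.05 was found for 3, all below 0. Of all genes tested, 51.5% lay below 0, and 2.72% did so at an unadjusted p under 0.05. Of 26 cytokine and chemokine genes 20 were tested, 15 lay below 0, the median was -0.38, and 1 gene in each direction had an unadjusted p under 0.05. Relative to the control line, the median cytokine gene was at 0.25 log2 units in the HORMAD1 line, -0.25 in the CT83 line and -0.10 in the double line. The list level of the cytokines in the 3 HORMAD1 libraries was -0.30, 0.37 and 0.54, so replicate 1 stood apart from the other 2. The median interaction of the list was -0.16 without HORMAD1 replicate 3 and -0.48 without replicate 1. The median NF-kB gene was at 0.06, -0.02 and -0.11 relative to the control, and its list median was between -0.21 and -0.09 when any 1 library was left out. No member of either list was called.

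BIRC3, an inhibitor of apoptosis and a classical NF-kB target, was at 148, 152 and 134 CPM in the HORMAD1 line. It was at 99.6, 124 and 99.4 CPM in the control line, 110.2, 111 and 90.5 CPM with CT83 alone and 100.2, 79.4 and 98.7 CPM in the double line. All 3 HORMAD1 libraries were above the other 9. The interaction was -0.60 (SE 0.16), and the double line had a mean of 92.8 CPM where the single effects add to 140.0 CPM. TNFAIP3, which encodes the NF-kB inhibitor A20, was at 35.7, 36.0 and 31.1 CPM in the double line, below all 9 other libraries, whose range was 38.4 to 54.1 CPM, with an interaction of -0.43 (SE 0.16). NFKB2 had -0.56 (SE 0.21). The subunits RELA and NFKB1 had -0.02 and -0.01, and the inhibitor gene NFKBIA had 0.18.

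SAA1, an acute-phase protein, was at 226, 190.4 and 196 CPM with HORMAD1 alone, 154, 174 and 140.0 CPM in the control line, 178, 198 and 131 CPM with CT83 alone and 145, 129 and 131 CPM in the double line. Its interaction was -0.72 (SE 0.18) and stayed between -0.88 and -0.59 over the alternatives. IL1A, the alarmin cytokine interleukin-1 alpha, had 197, 194 and 172 CPM in the HORMAD1 line against 127 to 165 CPM in the other 9 libraries. The interaction was -0.39 (SE 0.15), since the double line returned to 155, 127 and 165 CPM. CXCL8, a neutrophil chemokine, was at 98.1 and 104 CPM in HORMAD1 replicates 2 and 3 but at 28.6 CPM in replicate 1, the lowest of the 12 libraries. Its interaction of -0.44 had a standard error of 0.54 for that reason. Other members were LIF with -0.95, CCL20 with -0.92 (SE 0.45), PTGS2 with -0.49 and IL1B with -0.34. By contrast, IL6 had 1.12 (SE 0.41) and CXCL6 had 1.82.

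Genes outside the lists that were chosen after their values were seen had the same form. C15orf48, a small mitochondrial protein gene, was at 8.63, 8.68 and 11 CPM with HORMAD1 alone and at 3.37, 2.72 and 2.11 CPM in the double line, with 3.35 to 7.87 CPM in the control and CT83 lines. Its interaction was -1.24 (SE 0.35). The unnamed gene ENSG00000288528 was at 112, 113 and 103 CPM with HORMAD1 alone and at 58.7 to 85.1 CPM in the other 9 libraries. Its interaction of -0.82 (SE 0.15) had the smallest unadjusted p of the edgeR test, 6.91e-05, and DESeq2 called it with an adjusted p of 0.031.

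The promoters of BIRC3 and CXCL8 are shown because both genes were called when 3 libraries were left out, as described below, and both hold an NF-kB-type motif. Among the genes called in that fit, only BIRC3, CXCL8 and SAA1 were looked up singly, and SAA1 yielded no sequence. The motif is therefore not read as a feature of the called genes. Each sequence is the 250 bases before the start of the gene on the plus strand of GRCh38.p14, from RefSeq. Capitals mark matches to GGGNNTTCC or GGANNTTCC on either strand.
BIRC3, chr11:102317234-102317483: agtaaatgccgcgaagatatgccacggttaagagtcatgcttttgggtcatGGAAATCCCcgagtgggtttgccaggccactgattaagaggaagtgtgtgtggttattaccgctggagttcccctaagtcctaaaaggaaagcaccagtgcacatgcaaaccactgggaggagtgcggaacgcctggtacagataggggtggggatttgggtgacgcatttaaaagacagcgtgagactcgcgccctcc
CXCL8, chr4:73740319-73740568: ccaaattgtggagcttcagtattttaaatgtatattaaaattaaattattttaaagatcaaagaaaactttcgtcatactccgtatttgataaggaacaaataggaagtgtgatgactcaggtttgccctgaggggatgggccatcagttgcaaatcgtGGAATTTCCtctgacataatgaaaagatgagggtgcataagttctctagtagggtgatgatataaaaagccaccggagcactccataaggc
The BIRC3 match begins at -199 from the start and lies on the minus strand, and the CXCL8 match begins at -91, where the letters match on both strands. In windows from 250 bases before to 50 bases after the start, 10.8% of 35116 RefSeq promoter windows held at least 1 match. A match was present in 11 of 15 NF-kB genes with a window (73.3%), in 11 of 20 cytokine and chemokine genes (55.0%) and in 3 of 16 mesenchymal genes (18.8%). These shares count genes with a match in any of their windows, whereas the 10.8% counts windows. The list shares and the 10.8% are therefore not directly comparable. A match is a description of these letters and says nothing of binding in these cells.

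Epithelial junction genes had a median near that of all genes, with more members below 0 than above. Of 35 members 33 were tested, 24 lay below 0 and 9 above, with a median of -0.09, where 51.5% of all genes lay below 0. An unadjusted p under 0.05 was found for 4, all below 0, against 2.72% of all genes. For 28 members the interval lay within 2-fold of additivity. CLDN4, a tight junction claudin, was at 89.4, 90.1 and 88.2 CPM in the double line, the lowest 3 of the 12 libraries. It was at 114, 124 and 119.7 CPM in the control line, 110.1, 96.7 and 104 CPM with CT83 alone and 101, 146 and 150.4 CPM in the HORMAD1 line, with an interaction of -0.37 (SE 0.17). TJP3, a tight junction scaffold, was at 1.42, 1.32 and 1.51 CPM in the double line and 3.98, 3.37 and 2.90 CPM in the HORMAD1 line. Its interaction was -1.62 (SE 0.40).

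GRHL1 and OVOL1, transcription factors of epithelial identity, had -0.67 (SE 0.26) and -0.52 (SE 0.24). CDH1, which encodes E-cadherin, had -0.23 (SE 0.14) and EPCAM -0.01. The desmosomal genes DSP and DSG3 had -0.50 and -0.01. The list median was between -0.15 and -0.05 when any 1 library was left out. Luminal genes had a median of -0.08 over 13 tested, and basal genes 0.01 over 20 tested, which was -0.04 when libraries were scaled by size alone.

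The 8 genes with the smallest p below 0 under the same rule were AIF1L, POMK, RAB11FIP4, ARFGEF3, SAA1, SIX4, TSPAN18 and HBEGF. AIF1L, an actin-bundling protein, was at 4.79, 3.16 and 4.53 CPM in the double line, below all 9 other libraries, which ranged from 6.83 to 12.9 CPM. The sum of the single effects gives 9.06 CPM, and the interaction was -1.12 (SE 0.28). HBEGF, a ligand of the epidermal growth factor receptor, was at 32.8, 27.8 and 26.3 CPM in the HORMAD1 line. It was at 18.4, 14.9 and 24.6 CPM in the double line, 21.0, 20.5 and 19.0 CPM in the control line and 22.5, 21.8 and 28 CPM in the CT83 line, with an interaction of -0.85 (SE 0.23).

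POMK, a kinase of O-mannosyl glycans, was at 42.1, 38.0 and 42.4 CPM in the double line, below the range of 45.6 to 60.1 CPM of the other 9 libraries, with an interaction of -0.55 (SE 0.14). ARFGEF3 was at 6.92, 7.72 and 7.55 CPM against 9.71 to 14 CPM elsewhere, an interaction of -0.87 (SE 0.22). TSPAN18, a tetraspanin, was at 2.75, 3.51 and 4.73 CPM against 5.61 to 9.71 CPM elsewhere, an interaction of -1.18 (SE 0.32). In these 4 genes, AIF1L, POMK, ARFGEF3 and TSPAN18, the 3 double libraries were the lowest of the 12, and POMK was also higher in all HORMAD1 libraries than in the controls. CPVL, a carboxypeptidase, was lower in the double line (0.887, 1.40 and 0.604 CPM) than in all other libraries (1.64 to 4.81 CPM), with an interaction of -1.0 (SE 0.40), and the CT83 line lay between the control and the double line.

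The lists of immediate early genes, YAP and TAZ targets, TGF-beta signalling and Notch signalling had medians below 0 that rested in part on 1 library. Immediate early genes, the transcription factors that respond first to growth signals, had a median of -0.28 over 21 tested genes, 17 of them below 0. EGR1 had -1.94, FOS -0.79 and JUN -0.71, while NR4A2 had 0.96. HORMAD1 replicate 1 had a list level 0.41 log2 units above the mean of the 12 libraries, and without it the median was -0.10. YAP and TAZ targets had a median of -0.21 over 23 genes, with CCN2 at -0.72 and CCN1 at -0.53, and the median was 0.00 without CT83 replicate 3. TGF-beta signalling had -0.14 over 23 genes, and 0.01 without that library. Notch signalling had -0.24 over 18 genes, with the receptor genes NOTCH1 at -1.26 and NOTCH3 at -1.12, the ligand gene JAG1 at 0.30 and the target gene HES1 at 0.78. The Notch median was -0.05 without HORMAD1 replicate 1.

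**Figure D3:**
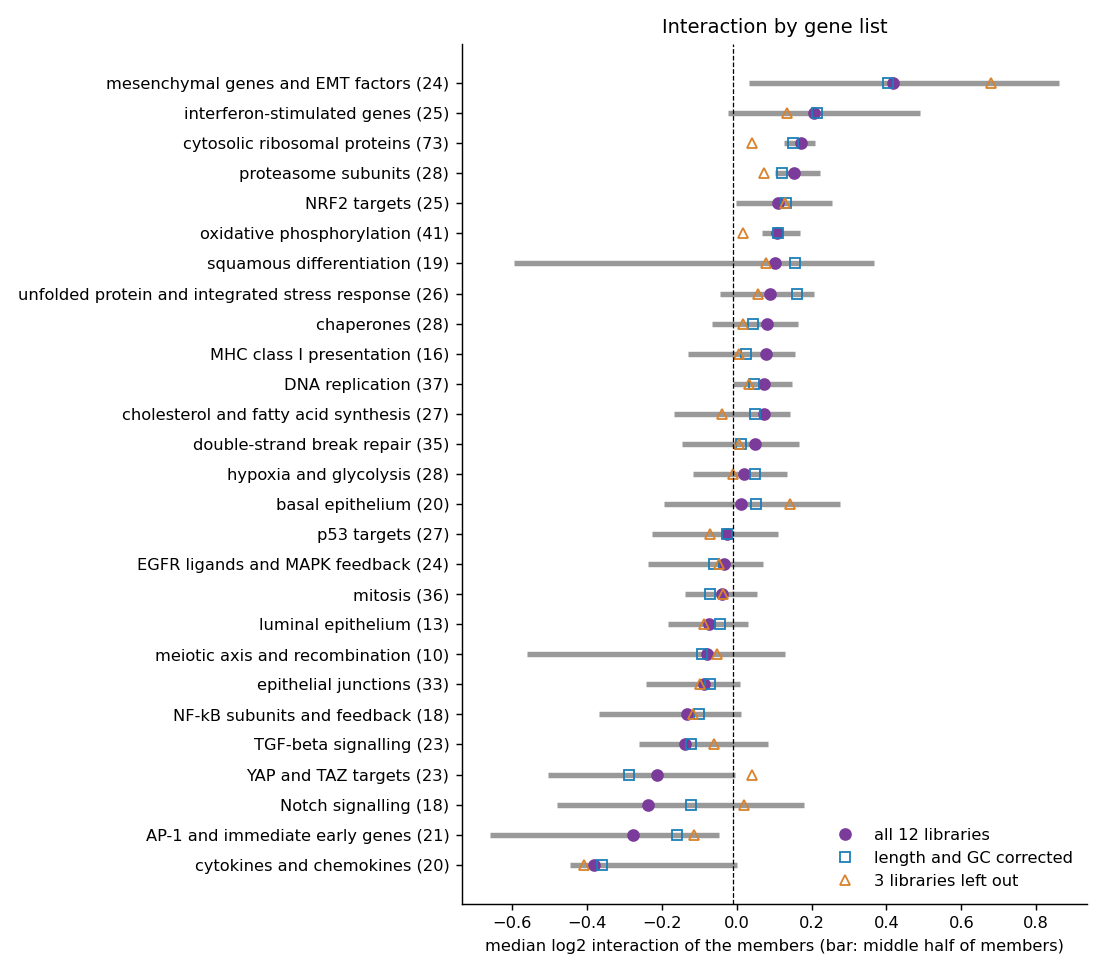
Median log2 interaction of the tested members of each gene list with at least 10 of them (number in brackets), with all 12 libraries (filled circles, grey bar from the 25th to the 75th percentile of members), after correction for transcript length and GC content (squares) and without 3 libraries (triangles); the dashed line is the median of all genes. Mesenchymal genes lay highest at 0.42 and cytokines lowest at -0.38, and the YAP and TAZ and Notch medians moved to 0.04 and 0.02 without the 3 libraries.

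Abundant housekeeping genes had small values above 0. Of 77 cytosolic ribosomal protein genes 73 were tested, and 72 lay above 0 (48.5% of all genes did), with a median interaction of 0.17 and quartiles of 0.13 and 0.21. For 72 of these genes the interval lay within 2-fold of additivity. RPL5 had 0.38 (SE 0.17), from 2359, 1922 and 2298 CPM in the control line, 2631, 2415 and 1927 CPM in the CT83 line, 1867, 2098 and 2066 CPM with HORMAD1 alone and 3051, 2686 and 2555 CPM in the double line. Proteasome subunits had a median of 0.15 (27 of 28 above 0) and subunits of oxidative phosphorylation 0.11 (38 of 41 above 0).

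These lists were also read beside the trend of each library on transcript length. The slope of log2 CPM on transcript length was highest in HORMAD1 replicate 1 (0.043 per doubling of length), CT83 replicate 3 (0.042) and control replicate 2 (0.021) and lowest in double replicate 1 (-0.040). The ribosomal list stood 0.20 below the mean of the libraries in HORMAD1 replicate 1, 0.25 below in CT83 replicate 3 and 0.21 above in double replicate 1. Averaged by line, the slope was 0.0038 in the control line, 0.0099 in the CT83 line, 0.0055 in the HORMAD1 line and -0.019 in the double line. By quartile of transcript length, the longest had a median interaction of -0.08 against -0.01 to 0.02 in the other 3. Without the 3 libraries with the steepest rise on length, the ribosomal median was 0.04 (0.07 without CT83 replicate 3 alone), the oxidative phosphorylation median 0.02 and the proteasome median 0.07. After correction for length and GC content, the ribosomal median was 0.15, the oxidative phosphorylation median 0.11 and the proteasome median 0.12. The mesenchymal median was then 0.40. Whether the trend on length caused these values was not tested.

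**Figure D4:**
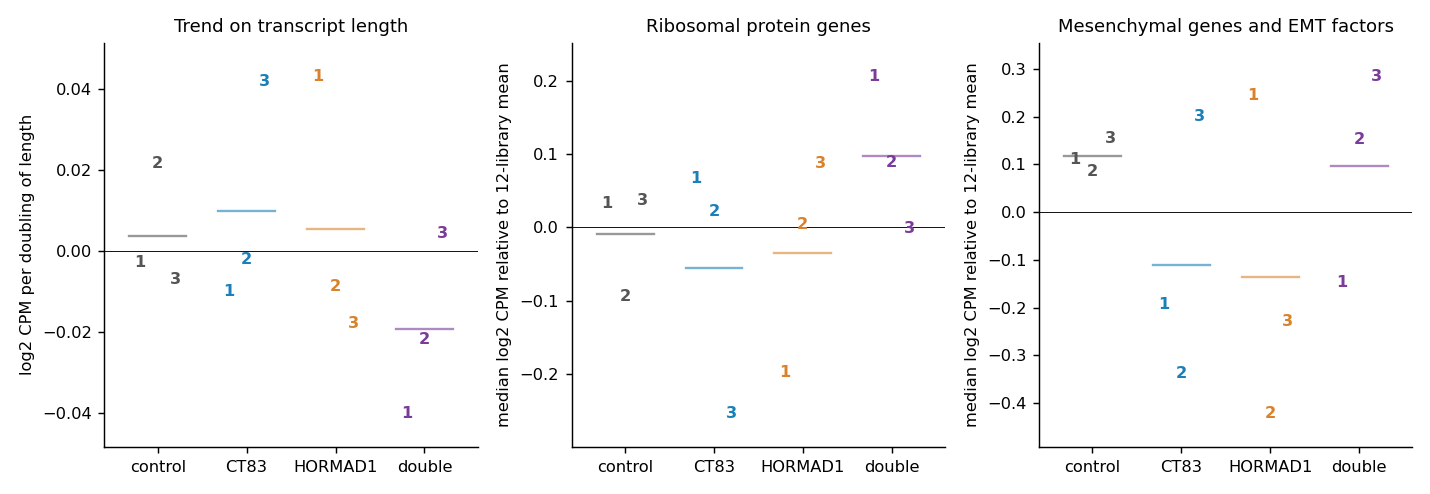
Slope of log2 CPM on transcript length (left), median level of the ribosomal protein genes (middle) and median level of the mesenchymal genes (right), each library shown by its replicate number and each line mean by a bar, levels in log2 units relative to the mean of 12 libraries. CT83 replicate 3 and HORMAD1 replicate 1 stood apart from the other libraries of their lines in all 3 panels, with the mesenchymal list at 0.20 and 0.24.

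The long transcript MKI67, a proliferation marker, shows how far 1 library can move a value. It was at 23.6, 136 and 19.5 CPM in the control line, 31.8, 104 and 242 CPM in the CT83 line, 202, 13 and 17.5 CPM with HORMAD1 alone and 17.5, 34.0 and 28 CPM in the double line. The spread within each single line was wider than any difference between line means. Its interaction was -2.64 (SE 1.77) with all libraries and -0.30 without HORMAD1 replicate 1. The list of mitosis genes as a whole had a median of -0.04 over 36 genes, and CDK1, CCNB1 and PLK1 had 0.05, 0.06 and 0.01.

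Interferon-stimulated genes had a median of 0.21 over 25 tested genes, 18 of them above 0, with 2 at an unadjusted p under 0.05. IFI44 was at 74.8, 58.3 and 44.5 CPM in the double line and at 39.3 to 47.8 CPM in the other 9 libraries, so double replicate 3 overlapped them. Its interaction was 0.49 (SE 0.20). RSAD2, which encodes the antiviral enzyme viperin, had 0.95, IFIT1 0.57 and ISG15 0.21, while MX1 had -0.30. The median was between 0.11 and 0.27 when any 1 library was left out.

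Targets of NRF2, the regulator of antioxidant genes, had a median of 0.11 over 25 genes, 18 of them above 0. NQO1, a quinone reductase, was at 338, 278 and 349 CPM in the control line, 291, 292 and 306 CPM in the CT83 line, 269, 313 and 315 CPM with HORMAD1 alone and 369, 354 and 390.0 CPM in the double line. The 3 double libraries were the highest of the 12, and the interaction was 0.43 (SE 0.13). HMOX1, heme oxygenase 1, had 0.58 (SE 0.23), and the regulator genes NFE2L2 and KEAP1 had 0.07 and 0.02. Hypoxia and glycolysis genes had a median of 0.02 (-0.03 when scaled by library size alone), with ANGPTL4 at 0.66 and ENO2 at -0.96.

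Genes of DNA repair and meiosis, the processes in which HORMAD1 acts in germ cells, had medians near that of all genes. Of 38 genes of double-strand break repair 35 were tested, with a median of 0.05, and 33 had an interval within 2-fold of additivity. RBBP8, which encodes the resection factor CtIP, had 0.39 (SE 0.13), and PRKDC, the catalytic subunit of the DNA-dependent protein kinase, had -0.36 (SE 0.16). BRCA1 had -0.47 and BRCA2 -0.28. TRIP13, the ATPase that remodels HORMA-domain proteins, was at 101 to 128 CPM in all 12 libraries, with an interaction of 0.05 (95% interval -0.23 to 0.32).

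Of 32 genes of the meiotic axis and recombination 10 passed the filter on low counts, with a median of -0.08. DMC1, the meiotic recombinase, was at 0.0887 to 1.35 CPM, with an interaction of -2.48 (SE 0.99), and the cohesin subunit gene REC8 was at 0.519 to 1.57 CPM, with 1.37 (SE 0.59). Both levels rest on few counts, and the 2 values had opposite signs. Among other cancer/testis genes 3 of 30 passed the filter, and IL13RA2, MAGED1 and MAGED2 had -0.29, -0.04 and 0.10. Targets of p53, which SV40 large T antigen holds inactive in this line, had a median of -0.03 over 27 genes, with CDKN1A at 0.03 (95% interval -0.23 to 0.29), MDM2 at -0.31 and GDF15 at -1.25.

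When control replicate 2, CT83 replicate 3 and HORMAD1 replicate 1, the 3 libraries with the steepest rise of level on transcript length, were left out together, edgeR called 22 of 15667 genes (0.14%). Of these, 15 (0.0957%) lay above 0 and 7 (0.0447%) below. Leaving out any 1 library gave 0 calls. All 22 genes had the same sign with all 12 libraries, where 18 had an unadjusted p under 0.05 and none was called. The libraries were left out for their rise on length and not for the levels of these genes, but earlier results of these data were known. They were also the libraries least like the other replicates of their lines. The chi-square per degree of freedom was 2.60, 3.16 and 2.49 for the control, CT83 and HORMAD1 pairs kept. For pairs that held a library left out it was 7.23 to 26.1. The spread between replicates in that fit is therefore smaller by selection, and the calls rest in part on that choice. Double replicates 1 and 2, which fell with length (slopes of -0.040 and -0.022), were kept. CT83 replicate 3 and HORMAD1 replicate 1 were also the libraries above all controls for the mesenchymal list. The fit rests on 2 libraries in each of the control and single lines.

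The 22 genes included members of the lists described above and others outside them. Above 0 were the mesenchymal genes VIM (0.86, SE 0.14, adjusted p = 0.039 with edgeR) and SNAI2 (0.74, SE 0.14, adjusted p = 0.0239 with edgeR), together with VCAN (3.08), GREM1 (4.48) and SRGN (3.13). They also held ANGPTL4, a lipase inhibitor, at 1.02, SPHK1, sphingosine kinase 1, at 0.60, KLK5, an epidermal protease, at 0.65, PRSS23 at 0.52, WDR77 at 0.51, NQO1 at 0.48, HS3ST2 at 1.31 and PTHLH at 0.66, and the antisense genes VCAN-AS1 and VIM-AS1, which overlap VCAN and VIM. Below 0 were SAA1 (-0.88, SE 0.11, adjusted p = 0.000155 with edgeR), CXCL8 (-0.86), BIRC3 (-0.78), the complement gene C3 (-0.77), C15orf48 (-1.68), CLDN4 (-0.56) and ENSG00000288528 (-1.0).

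**Figure D5:**
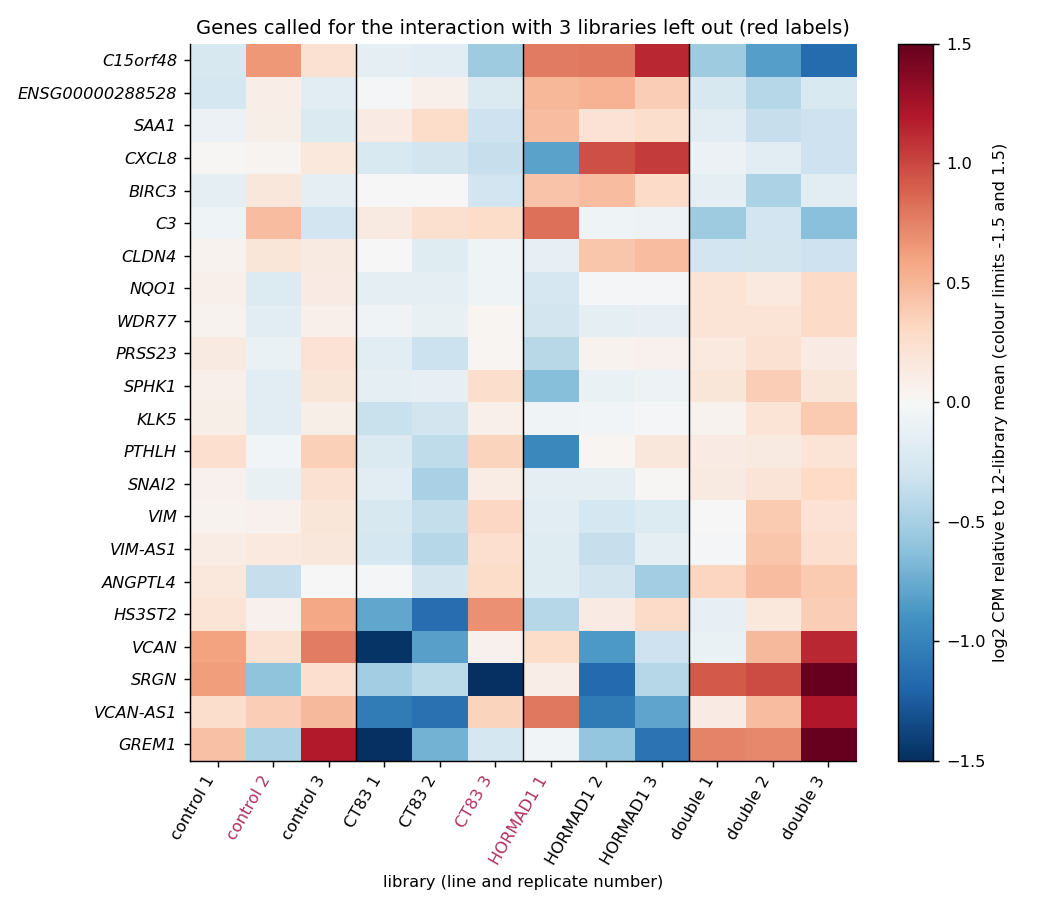
Log2 CPM relative to the mean of 12 libraries for the 22 genes called with 3 libraries left out, ordered by their interaction in that fit, with the libraries left out labelled in red; colours are limited at -1.5 and 1.5. CT83 replicate 3 stood above the other CT83 libraries for VIM and HS3ST2, HORMAD1 replicate 1 stood below the other HORMAD1 libraries for CXCL8 and PTHLH, and the double libraries were high for GREM1 and SRGN.

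The values of some of these genes turned on the libraries left out. HORMAD1 replicate 1 had the lowest CXCL8 and PTHLH levels of the 12 libraries (28.6 and 22.6 CPM), and its C3 level of 623 CPM was the highest. For CXCL8 the interaction was -0.44 with all libraries and -0.86 without the 3, and its unadjusted p was under 0.05 in 2 of 23 alternatives. The same count was 1 for PTHLH, 8 for CLDN4, 16 for C3, 17 for SPHK1 and 22 for KLK5. BIRC3, SAA1, GREM1, SRGN, VCAN, VIM, SNAI2, ANGPTL4, C15orf48, NQO1, WDR77 and ENSG00000288528 had an unadjusted p under 0.05 in 23 of 23. The alternatives refit largely the same libraries and include the fit that called these genes. These counts are therefore not independent repeats of a result. PRSS23, HS3ST2, VCAN-AS1 and VIM-AS1 were not followed over the alternatives.

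A full separation, in which all control and double libraries lie on one side of all single-line libraries, was found above for 5 genes (0.032% of those tested) and below for 13 genes (0.0832%). This rule uses only the order of the libraries and not the size of the interaction. CWC27 met it with an interaction of 0.23 (SE 0.12), whereas HHIP, with 4.61, did not. How many genes a random order of the libraries would separate in this way was not tested. Neither count, nor any gene named from it, is therefore read as more than such an order would give. Above were BDNF, RDH16, INTS4, a subunit of the Integrator complex, the spliceosome gene CWC27 and the pseudogene UBE2D3P1. INTS4 was at 39.6 to 43.8 CPM in the control and double lines and at 34.9 to 38.6 CPM in the single lines, with an interaction of 0.37 (SE 0.12). Below were, among others, ADGRA3, an adhesion G-protein-coupled receptor, with an interaction of -0.37 (SE 0.11), SESTD1 with -0.50 (SE 0.16) and the transcription factor gene SP6 with -0.55 (SE 0.19). SP6 was at 9.82 to 12 CPM in the control and double lines and at 12.2 to 14.7 CPM in the single lines, a separation narrower than the range within either set.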

How the data were processed

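PolyA RNA of 12 libraries was measured; the authors deposited estimated counts (expected counts, not all whole) per gene. The tools were STAR 2.7.5c, SAMtools, Picard and Trimmomatic 0.39, and the builds hg38 and hg19 were named without roles, per the submitters' processing notes. Which tool counted reads, with which annotation and strand setting, is not given in these sources. Per the labels, ERCC spike-ins were added, and 0 of the 61533 gene entries were ERCC. Rounding to whole counts changed 6.75% of values, by at most 0.5. A symbol was found for 61520 entries and a GENCODE 29 record for 58356. Of 887 list members 5 had no entry.

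Samples were grouped by title. The contrast was tested with edgeR 4.0.16 (quasi-likelihood, robust, minimum count of 10, TMM scaling, R 4.3.3) over all lines with 8 residual degrees of freedom and Benjamini-Hochberg adjustment at 0.05. DESeq2 1.42.0 and limma 3.58.1 (voom) were alternatives, as were other scalings and filters, length and GC correction, each library left out, 3 libraries left out, and a replicate block. Levels are CPM after TMM scaling. Libraries held 9898845 to 14159740 counts. The variance between replicate pairs was 2.49 to 26.1 times that of counting (chi-square per degree of freedom), and the median standard error of 0.22 log2 units reflects that spread. Genes compared at CPM are compared across libraries, not with each other.

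Named genes were the 8 with the smallest p in each direction among protein-coding genes with a mean log2 CPM of at least 2, up to 3 members per list with p under 0.05, and a set list of genes; others are said to be chosen after their values were seen. Members and lists were chosen with earlier results of these data known. Lists are described by counts and medians, with no set test, because the members were chosen in that way.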

Additional observations from a re-analysis of the deposited data

How the results depend on the processing

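No named gene changed direction at an unadjusted p under 0.05 in any alternative. There were 2158 values for 90 genes, of which 1 per gene was the contrast on the CPM scale, compared by sign alone. In all, 2115 values kept their sign on the CPM scale or moved by less than a standard error on the log2 scale. Among these were small values of KRT8, KRT18, TP63, TRIP13, KLF6 and CDKN1A that crossed 0. Another 20 moved by more than a standard error. The remaining 23, in 19 genes, newly passed an adjusted p of 0.05, whatever the size of their move. The count of called genes was 0 with all single libraries left out in turn, with other scalings (TMM, RLE, upper quartile, library size), with length and GC correction and with limma-voom. It was 2 without the filter on low counts (HHIP and ENSG00000288528), 3 with DESeq2 and 22 without the 3 libraries of the steepest rise on transcript length. The count at an unadjusted p under 0.05 was 1261 without the filter, since 28220 genes were then tested, and 1036 without the 3 libraries. It ranged from 377 (without control replicate 3) to 1240 (without HORMAD1 replicate 3) when 1 library was left out, with 467 without control replicate 1 and 1087 without control replicate 2. The count with an interval within 2-fold of additivity ranged from 10285 to 11415 in the same way. The cause of these moves was not tested.

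With the replicate block, 0 genes were called and 600 had an unadjusted p under 0.05, and 632 with the block and the length and GC correction. The replicate numbers did not pair the libraries: over 18 same-numbered pairs the correlation of deviations ran from -0.54 to 0.60, 6 were over 0.1, and 4 of 12 libraries correlated best with their own number. Of 690 list medians 627 moved by less than the spread between replicates and 63 by more. Depth limits genes of a mean log2 CPM under 2, where 10.5% of intervals lay within 2-fold. Construct level, line and transgene cannot be told apart here.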
